A study of Mus musculus with 3 samples.

Results

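Macrophage identity genes and the growth factor genes that sustain macrophages were followed in mouse embryonic kidneys grown as explants in 3 media. The set holds 10 genes of the 19938 that the array names, chosen by symbol: the receptor gene Csf1r, its ligand genes Csf1 and Il34, the transcription factor genes Spi1 and Irf8, and the macrophage genes Adgre1, Cx3cr1, Tyrobp, Trem2 and Laptm5. Each was read by 1 probe set annotated to that symbol alone, so no choice among probe sets was needed. The genes were chosen with earlier results of these data known. The kidneys came from C57BL/6 embryos at embryonic day 11.5 and lay for 48 h on Transwell filters. One group had DMEM with 10% fetal bovine serum (serum), the next DMEM without serum (serum-free), and the last serum-free DMEM plus retinoic acid. No transgene or mutation is named in the labels, and an explant has no blood supply. Each medium had 1 array, and the labels used here give neither the dose of retinoic acid nor the number of kidneys per array. Without replicates, the differences carry no error and were not tested for significance.

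CSF1R is a receptor tyrosine kinase on which most tissue macrophages depend for survival and growth, and CSF1 and IL34 are its ligands, made mainly by other cells of the tissue. PU.1, encoded by Spi1, and IRF8 are transcription factors that set up the myeloid programme, and Csf1r is a known PU.1 target. Macrophages of the embryonic kidney enter it from outside, first as descendants of yolk sac progenitors, and clear dying cells there.

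Without serum, the 8 macrophage genes other than the ligands were higher than with serum by 1.00 (Irf8) to 1.72 (Trem2) on the log2 scale. Their median was 2.73-fold, whereas the ligand gene Csf1 differed by -0.13. The other ligand gene, Il34, differed by 0.00, but it lay under the floor given below on every array. Its value does not show that it was constant. With retinoic acid added to serum-free medium, 6 of the 8 had lower values, with differences from -0.26 (Cx3cr1) to -0.77 (Adgre1), short of 2-fold. Csf1r and Irf8 stood apart from these, at 0.20 and 0.22 above their serum-free values. Both differences were smaller than the 95th percentile of disagreement between probe sets of the same gene (0.27). The rest of the values below are log2 intensities, and a gene counts as called when it differed by 2-fold or more and its greater value reached a floor of 7.12 (an intensity of 139.5), the median of all gene-level values. In these bulk samples, fewer cells of a type and less RNA per cell cannot be told apart.

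**Figure D1:**
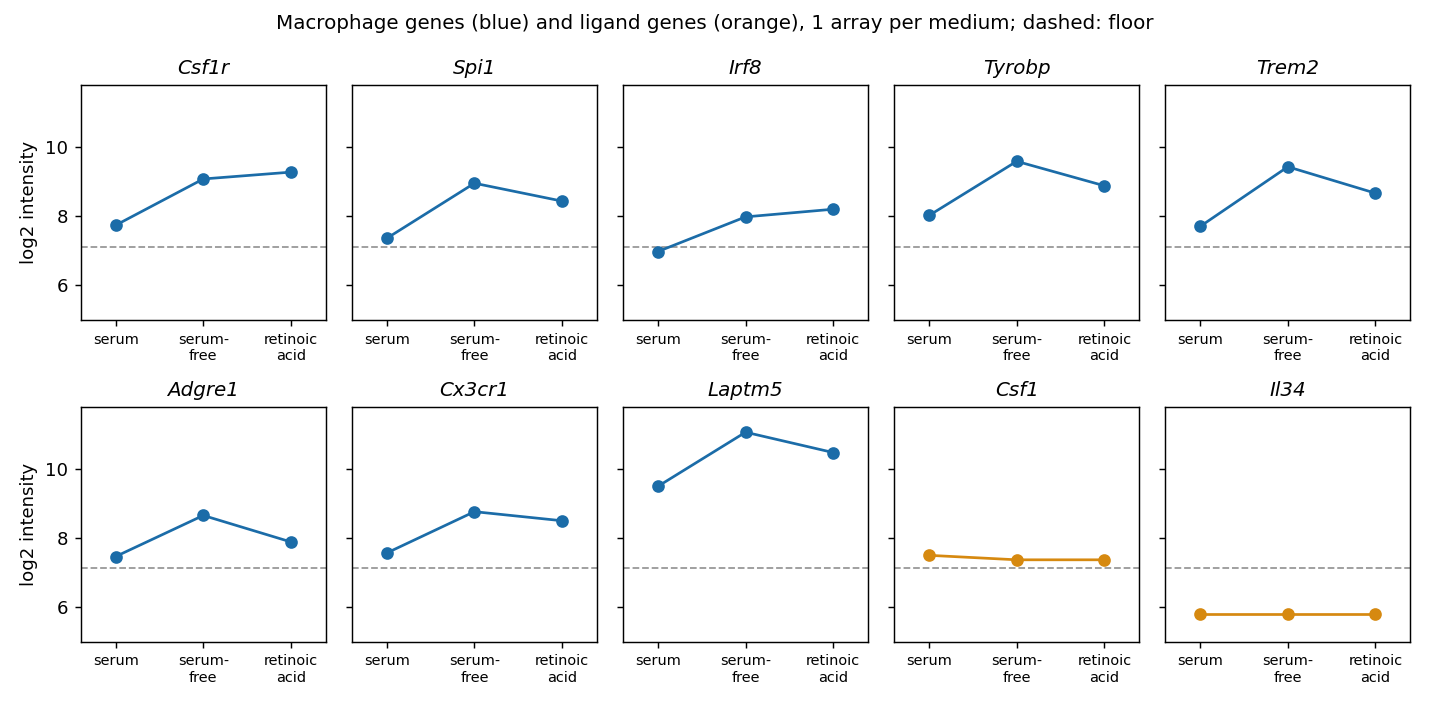
Log2 intensity of each gene (vertical axis) on the serum, serum-free and retinoic acid arrays (horizontal axis), 1 point per array; the dashed line is the floor of 7.12. The macrophage genes (blue) are lowest in serum, and the ligand genes Csf1 and Il34 (orange) are nearly level, with Il34 under the floor.

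Genes of the labelled tissue were read first. Of 12 genes of kidney progenitors, ureteric bud and stroma, 0 lay under the floor on all arrays, beside 9697 of all 19938 genes. That count does not check which medium an array had. Without serum 2 were at least 2-fold lower, Pax8 at -1.17 and Ret at -1.16, beside 0.699% of all genes at or above the floor. Sex-specific transcripts differed between the arrays, with Xist at 10.84, 11.48 and 9.79 on the serum, serum-free and retinoic acid arrays, and their part in the results was not tested. As a yardstick, genes with more than 1 probe set above the floor were used, and the log2 differences of their probe sets disagreed by a 95th percentile of 0.28 for serum-free against serum, 0.27 for retinoic acid against serum-free and 0.33 for retinoic acid against serum. This disagreement covers probes only, not embryos or cultures.

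The ligand genes come first in the pathway. Csf1, which encodes the main circulating and tissue growth factor of macrophages, was at 7.50 in serum and at 7.37 in both serum-free media, a difference of -0.13 that is smaller than the disagreement between probe sets. It was above the floor on all 3 arrays, and its values without and with retinoic acid were exactly equal. Exact ties are common in values summarised by median polish over a few arrays, and 51.6% of all genes were tied between those arrays, so a tie is no measure of equal expression. Il34, which encodes the second ligand, was at 5.81 on all 3 arrays and under the floor on each. Of the 9697 genes under the floor on all arrays, 56.6% were likewise tied on all 3, so its equal values do not show that Il34 was constant.

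Csf1r, the receptor gene, was at 7.74 with serum, 9.08 without it and 9.28 with retinoic acid, or 214, 541 and 621 in intensity. It was 2.53-fold higher without serum and 2.90-fold higher with retinoic acid than with serum. The serum array was the low one, and the difference of 0.20 between the serum-free arrays was smaller than the disagreement between probe sets. In retinoic acid against serum, Csf1r had the largest difference of the 10 genes (1.54) and ranked 29 of 10169 genes at or above the floor.

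Spi1, the gene of PU.1, was at 7.36 with serum, 8.96 without it and 8.44 with retinoic acid. It was 3.02-fold higher without serum (1.59), and the retinoic acid value lay between the other two, at -0.52 from the serum-free one. Irf8, which encodes a factor that binds DNA together with PU.1, was at 6.98 with serum, under the floor, 7.98 without it and 8.20 with retinoic acid. Its difference of 1.00 between serum-free medium and serum was the smallest of all 89 genes that were counted as higher there. It fell short of 2-fold with 32 added to the intensities (0.85) and with the arrays centred on their medians (0.93). Both factors were lowest in serum. On the serum-free arrays Spi1 was lower and Irf8 slightly higher with retinoic acid, but the Irf8 difference of 0.22 was smaller than the disagreement between probe sets.

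TYROBP is an adaptor protein that carries an activating motif for the kinase SYK, and TREM2, a lipid-sensing receptor of macrophages and microglia, signals through it. Tyrobp was at 8.02 with serum, 9.59 without it and 8.88 with retinoic acid. Trem2 was at 7.71, 9.43 and 8.67 in the same order. Without serum their differences were 1.57 and 1.72, and with retinoic acid against serum-free medium they were -0.71 and -0.76, so both genes were highest on the serum-free array. Trem2 had the largest difference of the 10 genes in serum-free medium against serum and ranked 17 of 10156 genes.

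The remaining members are markers of the cell. Adgre1, which encodes the F4/80 antigen, was at 7.47 with serum, 8.65 without it and 7.89 with retinoic acid, so that its retinoic acid value lay nearer to serum (0.42) than to serum-free medium (-0.77). Cx3cr1, which encodes the fractalkine receptor, was at 7.57, 8.76 and 8.50 in the same order. Laptm5, which encodes a lysosomal membrane protein of blood cells, was at 9.50, 11.06 and 10.47, or 723, 2138 and 1422 in intensity. Serum was the low array for each of these 3 genes. For Cx3cr1 the difference of -0.26 between the serum-free arrays did not exceed the disagreement between probe sets, and for Adgre1 and Laptm5 (-0.59) it did.

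**Figure D2:**
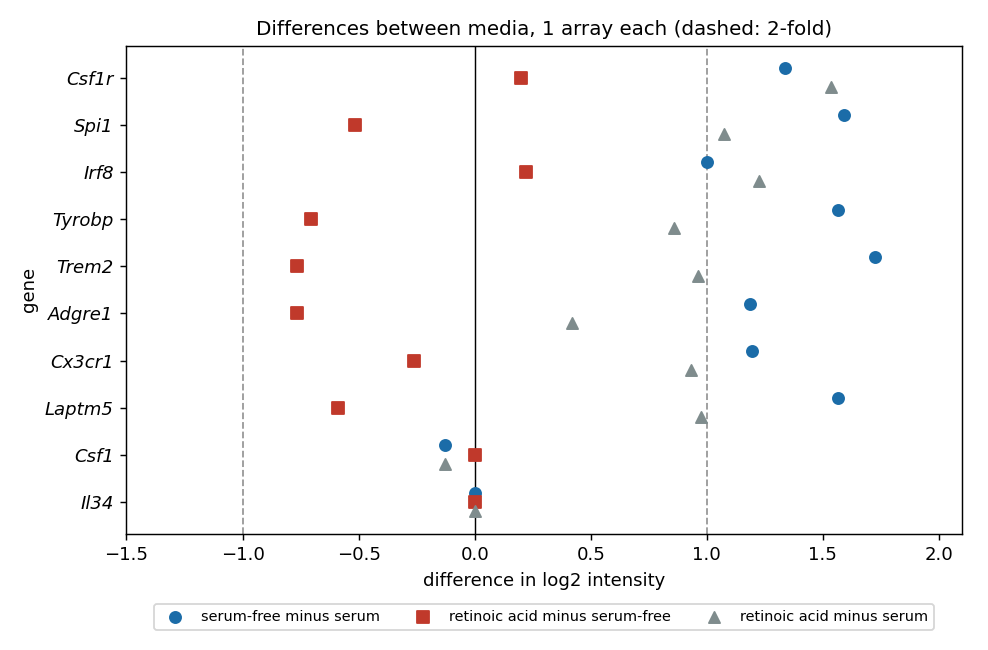
Difference in log2 intensity (horizontal axis) of each gene (vertical axis) for serum-free minus serum (circles), retinoic acid minus serum-free (squares) and retinoic acid minus serum (triangles), 1 array per medium; the dashed lines mark 2-fold. The 8 macrophage genes lie at 1.00 to 1.72 in the first comparison, Csf1 at -0.13 and Il34, under the floor on all arrays, at 0.00.

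The first comparison asked how these genes differed when serum was absent. Of the 10 genes, 8 were called higher without serum and 0 lower, beside 0.876% of the 10156 genes at or above the floor that were higher and 0.699% that were lower. The 8 are the macrophage genes, and Csf1 and Il34 are the others, Il34 because it lay under the floor. The macrophage genes had a median difference of 1.45, while the median of all genes was 0.00. The smallest difference among them (Irf8) was larger than that of Csf1 by 1.13. Il34, tied under the floor, gives no such comparison. Within the group, Spi1, Tyrobp, Trem2 and Laptm5 lay at 1.56 to 1.72, and Irf8, Adgre1, Cx3cr1 and Csf1r at 1.00 to 1.34.

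The second comparison asked how the same genes differed once retinoic acid was added without serum. Of the 10 genes, 0 were at least 2-fold different, beside 1.05% of the 10111 genes at or above the floor that were higher and 0.613% that were lower. The macrophage genes had a median of -0.55, with 6 below 0 and 2 above it. With a threshold of 1.5-fold, 4 were lower, namely Adgre1, Trem2, Tyrobp and Laptm5, beside 1.94% of all genes. Among the lowest differences of all 10111 genes, Adgre1 ranked 126 and Trem2 127, while Csf1r and Irf8 ranked 766 and 688 from the top. Csf1r was 0.79 above the median of the other 7 macrophage genes and Irf8 0.81 above it, the largest such departures in this comparison.

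The third comparison set retinoic acid without serum against serum. It shares its arrays with the others, so its values are no separate evidence of direction. Of the 10 genes, 3 were at least 2-fold higher, Csf1r at 1.54, Irf8 at 1.22 and Spi1 at 1.08, beside 1.04% of 10169 genes called higher and 0.816% called lower. With a threshold of 1.5-fold, 7 were higher, beside 2.46% of all genes. With 32 added to the intensities Spi1 came to 0.95, short of 2-fold. Laptm5 (0.98), Trem2 (0.96), Cx3cr1 (0.93) and Tyrobp (0.86) lay just short of 2-fold, and Laptm5 passed it under cyclic loess scaling (1.01). Adgre1 was at 0.42. The macrophage median was 0.97, and Csf1 stood at -0.13. Il34 stood at 0.00, tied under the floor, and gives no comparison. In the order of the 3 media, 6 of the 8 macrophage genes had their highest value in serum-free medium. Csf1r and Irf8 had it with retinoic acid, by less than the disagreement between probe sets.

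**Figure D3:**
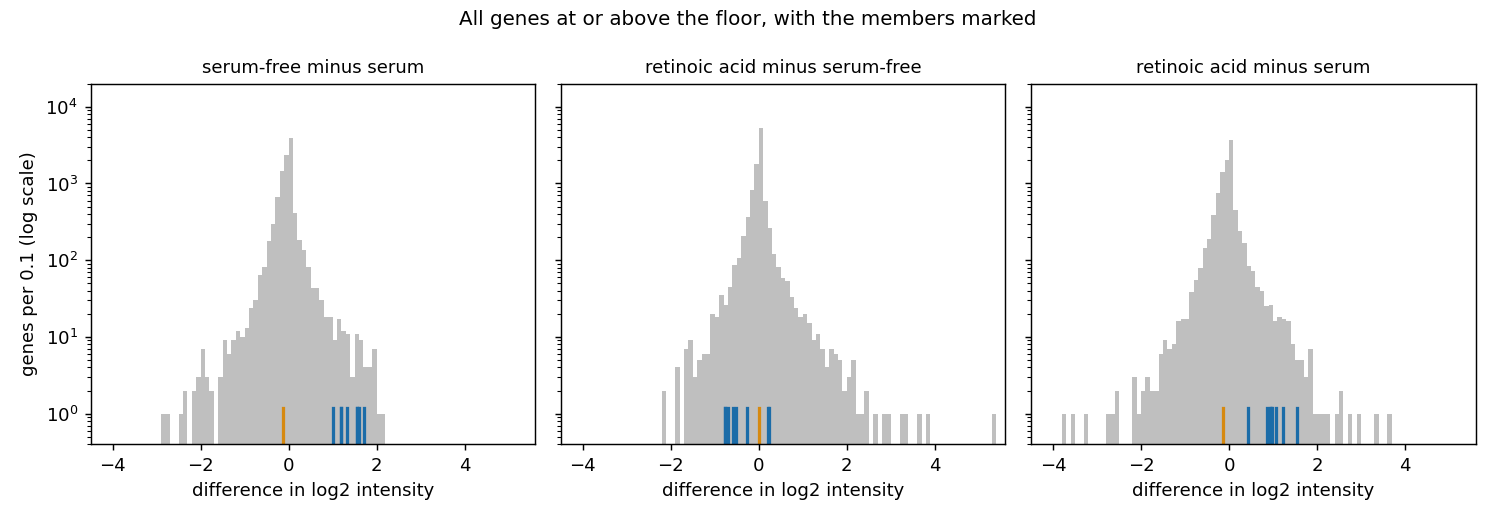
Number of genes per 0.1 of difference in log2 intensity (vertical axis, log scale) over all genes at or above the floor, in 3 comparisons; the short bars mark the macrophage genes (blue) and Csf1 (orange). Il34 is not shown because it lay under the floor. In serum-free minus serum the macrophage genes lie in the upper tail, at 1.00 to 1.72, where 89 of 10156 genes reached 2-fold.

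Promoter sequences were read because 8 of these genes were higher together and 1 of them encodes PU.1. RefSeq windows (GRCm38.p6) matched 5 of the 10 genes, Csf1, Irf8, Cx3cr1, Trem2 and Laptm5, with 6 windows in all. The core of the PU.1 site, the PU box GAGGAA, was searched on both strands of the 250 bases before the start. It lay in the Laptm5 window, 33 to 38 bases before the start, and in the Trem2 window, 35 to 40 bases before it. Both lie on the strand opposite to the gene, so that the box reads as its reverse complement. Those stretches are in capitals, beside the Csf1 window, which holds no match. The windows of Irf8 and Cx3cr1, genes that were also higher without serum, hold no match either. The Laptm5 window is chr4:130913066-130913315 on the plus strand, the Trem2 window chr17:48346151-48346400 on the plus strand, and the Csf1 window chr3:107760470-107760719 on the minus strand.
Laptm5: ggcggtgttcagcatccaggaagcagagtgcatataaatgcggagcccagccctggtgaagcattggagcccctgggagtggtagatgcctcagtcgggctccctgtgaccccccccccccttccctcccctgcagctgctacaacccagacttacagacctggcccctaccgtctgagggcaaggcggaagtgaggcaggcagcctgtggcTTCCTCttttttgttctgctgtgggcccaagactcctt
Trem2: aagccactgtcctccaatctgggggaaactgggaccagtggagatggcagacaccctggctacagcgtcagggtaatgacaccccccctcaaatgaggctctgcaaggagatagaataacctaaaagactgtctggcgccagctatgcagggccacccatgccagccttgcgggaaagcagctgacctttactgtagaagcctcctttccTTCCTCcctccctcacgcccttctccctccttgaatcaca
Csf1: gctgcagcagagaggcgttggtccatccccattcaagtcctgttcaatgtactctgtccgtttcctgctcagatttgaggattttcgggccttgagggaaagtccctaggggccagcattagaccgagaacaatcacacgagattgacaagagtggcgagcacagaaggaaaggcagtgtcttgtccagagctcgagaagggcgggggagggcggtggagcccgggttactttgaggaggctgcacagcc
Of all 32851 windows of that length, 23.3% hold the PU box. The related ETS sequence GGAAGT, which shares its GGAA with the PU box, lay in the Laptm5 window, 58 to 63 bases before the start, and in 19.7% of all windows. The composite site of ETS and IRF factors (GGAA, any 2 bases, GAAA) and the interferon-stimulated response element (GAAA, any 2 bases, GAAA) were found in 0 of the 6 windows and in 2.30% and 2.98% of all windows, on either strand. These 2 patterns share the letters GAAA. A match is a run of letters and not a measured binding site.

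Other macrophage markers were taken as a list of 30, chosen with earlier results of these data known, so their counts are no independent support. In all, 28 were measured. Of these, 13 were higher by 2-fold or more without serum and 0 lower, with a median of 0.96. Over all genes at or above the floor, 0.876% were higher and 0.699% lower. Of the 28, 10 lay under the floor on all arrays. Mrc1, which encodes the mannose receptor, was higher by 1.95, the lysosomal gene Cd68 by 1.94, the complement gene C1qc by 1.86, and Mpeg1, which encodes a pore-forming protein of phagocytes, by 1.78. With retinoic acid against serum-free medium the median was -0.12, with 1 gene called higher and 2 lower, beside 1.05% and 0.613% of all genes. The differences of Cd68 and Mrc1 were -1.16 and -1.02, while Timd4, which encodes a receptor for dying cells on resident macrophages, was higher by 1.74 (6.21 in serum, 6.88 in serum-free medium, 8.62 with retinoic acid).

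The signalling genes downstream of CSF1R and TYROBP differed less. Of 18 measured, 1 was at least 2-fold higher without serum, Lcp2, which encodes the adaptor SLP-76, at 1.69, and the list median was 0.16. Over all genes at or above the floor, 0.876% were called higher. Among the genes at or above the floor, the next largest values were those of Inpp5d, Pik3ap1 and Plcg2. Inpp5d, the gene of the phosphatase SHIP1, was at 0.95, Pik3ap1 at 0.67 and the phospholipase gene Plcg2 at 0.44. In retinoic acid against serum-free medium 0 were 2-fold different, and Lcp2 was at 0.14. Of the 18, 9 lay under the floor on all arrays, and some of the others, such as the adaptor gene Grb2, are expressed by most cell types.

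Transcription factors of the myeloid lineage other than Spi1 and Irf8 had a median of 0.17 over 15 genes without serum. Of these, 0 were at least 2-fold different, beside 0.876% of all genes at or above the floor called higher and 0.699% called lower. Of the 15, 6 lay under the floor on all arrays and could not be called. Tfec, of the MITF family, came nearest at 0.99 and was at -0.83 with retinoic acid against serum-free medium. Maf was at 0.54 and Mef2c at 0.42, and Id3, which BMP signalling induces in many cells, was at -0.41. A list of 9 measured receptors came mainly from the TREM, CD300 and SIGLEC families, and most pair with TYROBP or related adaptors. Of the 9, 8 lay under the floor on all arrays. The exception, Cd33, was at 5.95 with serum, 7.54 without it and 7.25 with retinoic acid.

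Other factors that act on macrophages were read next. Of 13 growth factors, chemokines and alternative ligand receptors, 0 were at least 2-fold different in any of the 3 comparisons, and the median without serum was 0.00. Per comparison and direction, 0.613% to 1.05% of all genes at or above the floor were called. Of the 13, 6 lay under the floor on all arrays and could not be called. Tgfb1 was at 0.58, Gas6, which encodes a ligand of the clearance receptor MERTK, at 0.49, Kitl at -0.37 and the chemokine gene Cxcl12 at -0.48. The genes of the growth factors GM-CSF (Csf2), G-CSF (Csf3) and IL-3 (Il3) lay under the floor on all arrays, at most 4.48, 5.24 and 4.11. The names of these 3 were chosen after their values were seen.

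The genes most like Csf1r were found by the distance between pairs of differences (serum-free minus serum, and retinoic acid minus serum-free) over the 3 arrays, among 10031 genes at or above the floor. The nearest was Ptafr, the receptor gene for platelet-activating factor, at a distance of 0.10, followed by Unc93b1 at 0.11, Apoc1 at 0.14, C1qa at 0.15 and Tbxas1 at 0.19. Within a distance of 0.25 there were 7 genes. Around Csf1 there were 7690 within that distance, and the nearest were Vdac3, Cdc7, Prpf4b, Tmem161b and Polg. Among the 10 genes themselves, Spi1 and Laptm5 were closest (0.08), followed by Tyrobp and Laptm5 (0.12), and the member nearest to Csf1r was Irf8 (0.34).

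**Figure D4:**
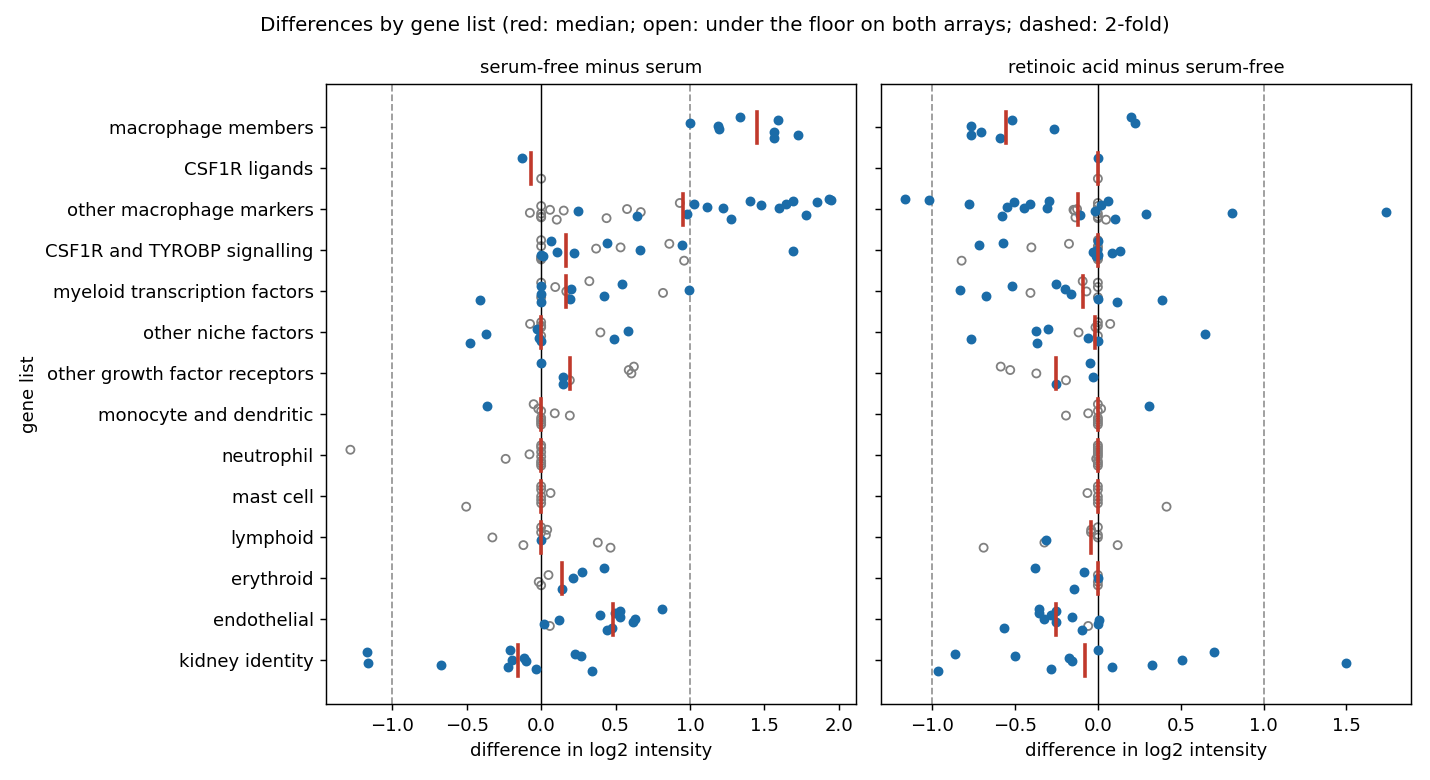
Difference in log2 intensity (horizontal axis) of each gene in 14 gene lists (vertical axis), for serum-free minus serum and retinoic acid minus serum-free; filled points lie at or above the floor, open points under it on both arrays, and red bars are list medians. The macrophage members and the other macrophage markers have medians of 1.45 and 0.96 without serum, and the endothelial genes 0.49.

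Markers of other cell types were read beside these values. Monocyte and dendritic cell markers had 9 of 10 genes under the floor on all arrays, neutrophil markers 10 of 10, mast cell markers 7 of 7 and lymphoid markers 8 of 9. The summed intensity of the monocyte and dendritic list was 649.7 with serum, 592 without it and 640.1 with retinoic acid. In the same order it was 385, 338 and 338 for neutrophil, 221, 197 and 216 for mast cell and 427, 440.4 and 382 for lymphoid markers. These sums are mostly of values under the floor. In these lists 0 genes were called in the 3 comparisons, but only 1, 0, 0 and 1 genes reached the floor and could be called. The neutrophil differences without serum, all under the floor, ran from -1.28 to 0.00. Endothelial genes had differences of the same sign as the macrophage genes without serum, 12 of 12 above 0, with a median of 0.49. Of these, 0 were at 2-fold, beside 0.876% of all genes at or above the floor called higher. Cdh5, the gene of the junction protein VE-cadherin, was at 0.81 and Esam at 0.63. The summed intensity of the endothelial list was 8227 with serum, 11543 without it and 9869.5 with retinoic acid, and for the 8 macrophage genes it was 2064, 5729 and 4164. The part of endothelial cells in the macrophage values was not tested.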

How the data were processed

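RNA of 3 explant cultures was measured on Affymetrix Mouse Gene 1.0 ST arrays, 1 per medium, from 250 ng of total RNA per the labels' protocols. The authors deposited linear intensities per probe set, made with Affymetrix Expression Console 1.1 and RMA, per the submitters' processing notes. RMA subtracts background, equalises the arrays by quantiles and summarises probes by median polish. The sources used here do not give its settings. Columns were matched to media through the labels.

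The log2 of the intensities was used as it stood. Of 35556 probe sets, 21789 carried exactly 1 symbol in the platform annotation. A gene with several took its brightest on average, for 19938 genes. Differences were called at 2-fold where the greater value reached the floor. The design gives no p-value or interval, and the small number of arrays limits precision. The calls were tested on simulated data, with changes larger than the threshold in genes well above the floor and little noise. That run checks the coding of the rule and does not measure the error of the differences. Python 3.11.15, pandas 2.3.3, R 4.3.3 and, for cyclic loess, limma 3.58.1 were used.

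The members and lists were chosen with earlier results of these data known. Named genes were the 10 members, up to 4 of each list by size of the serum-free against serum difference among genes at or above the floor, the 5 nearest to Csf1r and to Csf1, leaving out gene models, and the members of counts of 5 or fewer. The lists for megakaryocytes, erythroid cells, growth factor receptors and reference genes are given in the closing section. Alternatives were 32 added to intensities, cyclic loess, median centring, 2 other floors, 2 other choices of probe set and a 1.5-fold threshold.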

Additional observations from a re-analysis of the deposited data

How the results depend on the processing

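There were no replicates, so each value describes 1 array per medium. No paired analysis was possible because each medium has 1 array. Over the 8 alternatives, the median of the macrophage genes ranged from 1.32 to 1.48 for serum-free against serum, from -0.55 to -0.53 for retinoic acid against serum-free and from 0.90 to 1.00 for retinoic acid against serum. Only adding 32, cyclic loess and median centring could move these medians. The other floors, choices of probe set and threshold leave them as they are by construction. The count of members at least 2-fold different without serum was 7 or 8. Under the lower floor, without a floor and with other choices of probe set, 0 of the 30 member calls changed. That outcome was fixed in advance and is no sign of stability. Each member has 1 probe set, and Il34, the only member under the floor on all arrays, was tied. Adding 32 to the intensities ended 2 calls, median centring 1, and cyclic loess added 1, all of genes close to 2-fold. Member differences that were called kept their direction under each alternative.

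A threshold of 1.5-fold in place of 2-fold gave more genes by its construction. The members then numbered 4 in retinoic acid against serum-free and 7 in retinoic acid against serum. Without serum there were 3 signalling genes and 1 transcription factor. In retinoic acid against serum-free there were 5 other macrophage markers, 1 signalling gene, 2 transcription factors and 2 niche factors. Of these, the markers Timd4 and Lyve1 and the niche factor Kitl were higher, and the others were lower. In retinoic acid against serum the counts were 15, 2, 0 and 1. The counts take both directions together, out of 28, 18, 15 and 13 measured genes in these lists. Over all genes at or above the floor, serum-free against serum had 414 called in place of 160, out of 10156. Retinoic acid against serum-free had 440 in place of 168, out of 10111. Retinoic acid against serum had 539 in place of 189, out of 10169. Values under the floor, such as those of Il34, are limited by background.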

Other observations

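Receptors for the other myeloid growth factors were measured as 7 genes. Of these, 0 were at least 2-fold different in any comparison, beside 0.613% to 1.05% of all genes at or above the floor per comparison and direction. Their median was 0.19 without serum and -0.25 for retinoic acid against serum-free. Csf2ra, the GM-CSF receptor subunit gene, was at 9.31 with serum, 9.31 without it and 9.26 with retinoic acid. Il3ra was at 7.39, 7.54 and 7.51, and Kit, the receptor gene of stem cell factor, at 8.55, 8.69 and 8.44. The other 4 lay under the floor on all arrays.

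Of 5 measured megakaryocyte markers, 1 was at least 2-fold higher with retinoic acid than in serum-free medium, beside 1.05% of all genes at or above the floor. It was Pf4, the gene of platelet factor 4, at 6.24 with serum, 6.28 without it and 7.36 with retinoic acid. Pf4 reached the floor only with retinoic acid. The other 4 lay under the floor on all arrays and could not be called, so the list as a whole gives no result. Erythroid genes had a median of 0.14 without serum over 7 genes, with the embryonic globin genes Hba-x at 0.42 and Hbb-y at 0.27. Reference genes had a median of -0.04 over 8 genes without serum, with 0 at 2-fold, and Hprt and B2m at -0.18 and 0.17.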
